A study of Mus musculus with 30 samples.

Results

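CC chemokines are small secreted proteins that direct the movement of leukocytes, and 7 of their genes, Ccl2, Ccl3, Ccl4, Ccl5, Ccl7, Ccl20 and Ccl22, were followed across every condition of a study of the p38 stress kinase in mouse embryonic fibroblasts (MEFs). They were found by the gene name that the array gives to its probes. All 7 were present, with 9 probes, out of 21689 named genes and 33453 named probes. Ccl5 and Ccl7 had 2 probes each, and the other 5 genes had 1.

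The cells were immortalised MEFs, either wild type or p38α-/-, which lack the kinase p38α encoded by Mapk14. Total RNA was hybridised to 30 arrays, 2 for each of 15 groups, and the methods describe the 2 as independent experiments. Wild type MEFs received TNFα (an inflammatory cytokine, 100 ng/ml for 45 min), anisomycin (an inhibitor of protein synthesis, 25 ng/ml for 45 min) or hyperosmotic medium (100 mM NaCl for 45 min, 2 h or 8 h), and every stress was also applied after SB203580, an inhibitor of p38. A further wild type group had SB203580 without stress. In p38α-/- MEFs there were 4 groups, namely no treatment, anisomycin and TNFα for 45 min each and NaCl for 2 h. For SB203580 the protocol gives 10 µM for 30 min before the stress, whereas the sample titles give 10 mM and 2 h. For NaCl in p38α-/- MEFs the titles and the methods give 2 h, whereas the study's own list of arrays gives 45 min. RNA from the treated cells carried Cy5 on all arrays, Cy3 marked RNA pooled from 2 wild type cultures left untreated, and the dyes were never swapped. A log2 ratio above 0 is therefore a level above that pool, which was the only untreated wild type control, so that its own spread is left out of each test.

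Members of the family differ in the cells they attract. Ccl2 and Ccl7 act on monocytes through the receptor Ccr2, Ccl3, Ccl4 and Ccl5 attract monocytes and T cells, Ccl20 acts through Ccr6 on dendritic cells and lymphocytes, and Ccl22 acts through Ccr4. Fibroblasts make several of them when TNFα reaches its receptor, which releases the transcription factor NF-κB to the nucleus, and Tnfaip3 and Nfkbia are target genes that restrain the same route. p38 acts beside it, partly through the kinase MK2 and the protein Zfp36, which binds AU-rich messenger RNAs and shortens their life. The genes for Ccl2, Ccl3, Ccl4, Ccl5 and Ccl7 lie on chromosome 11, that for Ccl20 on chromosome 1 and that for Ccl22 on chromosome 8.

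RefSeq promoter windows of the GRCm38.p6 build were at hand for 3 of the 7 genes, and the 250 bases upstream of the start of each are printed. They belong to Ccl20, which had the highest ratio with TNFα, and to Ccl22 and Ccl3, dim genes that were not called with TNFα. Ccl2 and Ccl7 had no window, and whether a match goes with induction was not tested. The windows are chr1:83116516-83116765 (plus strand) for Ccl20, chr8:94745434-94745683 (plus strand) for Ccl22 and chr11:83649379-83649628 (minus strand) for Ccl3, read 5′ to 3′ along the gene. Capitals mark a match to the NF-κB consensus.
Ccl20: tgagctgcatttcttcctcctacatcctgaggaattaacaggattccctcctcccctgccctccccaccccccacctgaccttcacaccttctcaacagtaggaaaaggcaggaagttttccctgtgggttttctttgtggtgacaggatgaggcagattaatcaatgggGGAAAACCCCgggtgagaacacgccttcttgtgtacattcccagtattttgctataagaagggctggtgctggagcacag
Ccl22: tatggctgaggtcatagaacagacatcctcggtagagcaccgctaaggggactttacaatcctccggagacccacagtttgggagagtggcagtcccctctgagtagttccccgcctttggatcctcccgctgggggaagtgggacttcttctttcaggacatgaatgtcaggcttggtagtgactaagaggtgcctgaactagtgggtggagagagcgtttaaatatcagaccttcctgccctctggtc
Ccl3: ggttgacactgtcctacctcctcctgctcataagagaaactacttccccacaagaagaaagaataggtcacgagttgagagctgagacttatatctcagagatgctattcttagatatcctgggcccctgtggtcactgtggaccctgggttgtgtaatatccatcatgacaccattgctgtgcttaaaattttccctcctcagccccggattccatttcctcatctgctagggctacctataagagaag
The match in Ccl20 read GGAAAACCCC on the printed strand, fitted the consensus on the opposite strand and lay 80 to 71 bases upstream. The searched NF-κB consensus was present on either strand in 7.25% of all 32851 windows of this length, the AP-1 letters TGANTCA in 6.75% and the TATA letters TATAAA in 12.4%. No other match to the 3 motifs was found in the 3 windows, which says only that these letters are not in them.

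The probes for Ccl2, Ccl5, Ccl7 and Ccl20 were well above background in both channels on all 30 arrays. Those for Ccl3, Ccl4 and Ccl22 were dimmer: the treated channel was above background on 21, 11 and 8 of 30 arrays and the pool on 28, 20 and 18. Of the 270 spots of the 7 genes, 38 had been marked as outliers by the scanner software, 13 of them for Ccl2. Leaving those spots out left 92 of the 105 combinations of gene and group measured on both arrays, and a gene was tested only where it was measured on every array compared. Results are therefore given first without the marked spots, and with them kept where the test needs them. Median probe signal per array lay between 144 and 436 in Cy5 and between 272 and 833 in Cy3. Between 6.78% and 44.8% of spots per array were marked as outliers.

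TNFα gave the highest ratios of the family. The log2 ratio of Ccl20 was 7.18 and 6.96 on the 2 arrays, a mean of 7.07 ± 0.15 (SD, n = 2) or 134-fold, with an adjusted p of 2.97e-09 from limma. Both arrays stood above every array of any other group. Ccl2 had 4.29 and 3.51, the second from a marked spot, and Ccl7 had 4.10 and 3.20 as the mean of its probes, both of them marked on the second array. With marked spots kept, the means were 3.90 ± 0.55 (SD, n = 2, 14.9-fold, adjusted p = 8.53e-12 from limma) for Ccl2 and 3.65 ± 0.64 (12.5-fold, adjusted p = 1.63e-09 from limma) for Ccl7. In these bulk cultures more messenger RNA per cell and more cells that express a gene cannot be told apart.

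Without marked spots 1 of 5 members tested rose, against 5.25% of all genes tested, and with them 3 of 7 rose, against 6.1%. The 3 were Ccl20, Ccl2 and Ccl7. No other member passed: Ccl22 had 0.70 and 0.10, Ccl4 0.00 and 0.46, and Ccl3 0.80 and -0.47, so that both arrays disagreed in sign for Ccl3. The 2 Ccl5 probes had means of 0.16 and -0.36.

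The 2 Ccl7 probes moved together but not by the same amount. Probe A_51_P436652, with a median pool signal of 746, read 5.58 and 4.47 with TNFα, whereas A_52_P208763, with a median of 4860, read 2.62 and 1.92. Fitted alone with marked spots kept, they gave 5.02 (standard error 0.27) and 2.27 (standard error 0.20), adjusted p = 4.16e-09 and 1.42e-06 from limma. Both probes rose, and their difference in scale means that a mean over probes depends on which spots were kept.

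**Figure D1:**
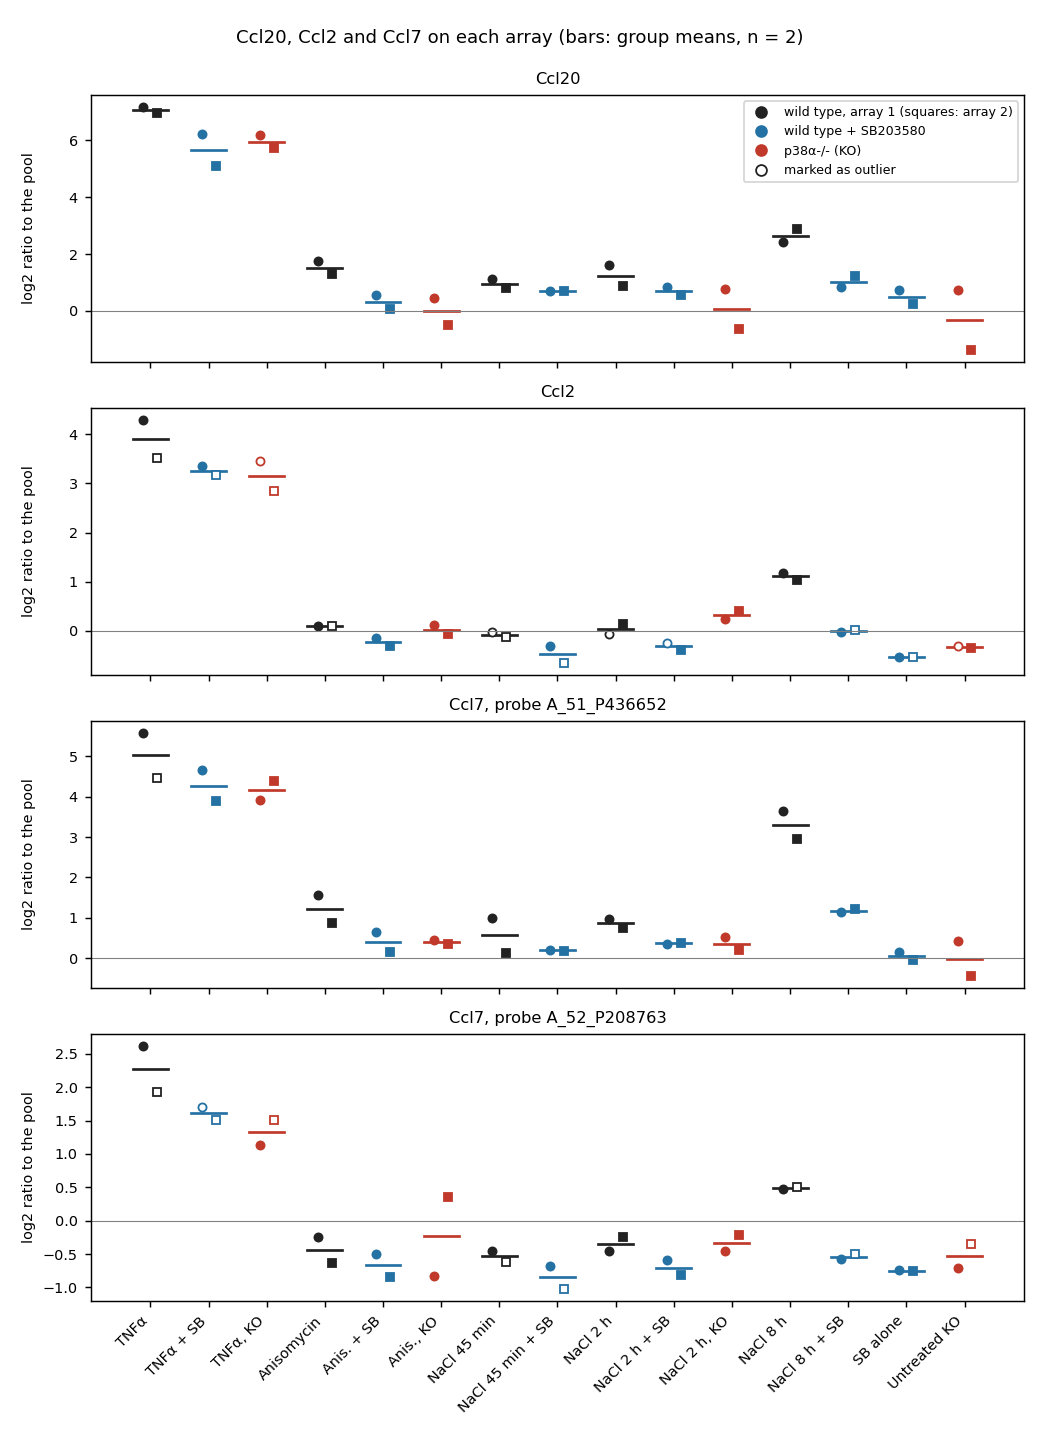
Log2 ratio to the untreated wild type pool of Ccl20, Ccl2 and the 2 Ccl7 probes on each of 30 arrays (circles, array 1, squares, array 2, bars, group means, n = 2, black, wild type, blue, with SB203580, red, p38α-/-). Open symbols are spots marked as outliers. The 3 groups with TNFα are highest in every panel, followed by NaCl for 8 h without SB203580.

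The stresses of 45 min differed in these genes. Ccl20 was higher with TNFα than with anisomycin by 5.54 on the log2 scale (adjusted p = 4.68e-05 from limma) and than with NaCl by 6.11 (adjusted p = 8.82e-06 from limma). In the fit that kept marked spots Ccl2 was higher by 3.80 than with anisomycin and by 3.98 than with NaCl, and Ccl7 by 3.26 and 3.63. Of the comparisons tested, 2 of 10 were called without marked spots and 6 of 14 with them. Few genes passed these tests: 0.0705% and 0.194% of all genes were higher with TNFα than with anisomycin and with NaCl, or 0.0968% and 0.212% with marked spots kept.

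Anisomycin raised Ccl20, Ccl4 and Ccl22 in the fit of all arrays, and none of the 3 calls held without its first array. Ccl20 read 1.76 and 1.29, a mean of 1.53 ± 0.33 (SD, n = 2, adjusted p = 0.0157 from limma). Ccl4 read 2.53 and 0.54 (mean 1.53, adjusted p = 0.00924 from limma), and Ccl22 read 2.75 and 1.54 (mean 2.15, adjusted p = 0.00687 from limma). For both dim genes the first array was far higher than the second. These were 3 of 6 members tested, against 5.72% of all genes.

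Without the first anisomycin array Ccl4 had 0.54 (adjusted p = 0.606 from limma), Ccl20 1.29 (adjusted p = 0.302) and Ccl22 1.54 (adjusted p = 0.293). Without the second array Ccl20 had 1.76 (adjusted p = 0.0691 from limma). The Ccl22 spot was not above background in the pool on either array and was above it in the treated cells on 1. Its mean treated signal was 2.67-fold the lowest signal above background with scaling between arrays and 2.56-fold without it. As that mean includes the array not above background, it gives no lower bound for a rise. For Ccl4 each channel was above background on 1 array of the 2. Another background correction, normexp with loess from the raw spot signals, put Ccl22 at 0.30 (adjusted p = 0.14 from limma), Ccl4 at 0.33 (adjusted p = 0.0134) and Ccl20 at 1.03 (adjusted p = 0.00961). Ccl2 stood at 0.10 on both arrays. Ccl7 did not pass as a mean of its probes (0.38, adjusted p = 0.459 from limma). Its probes went opposite ways, A_51_P436652 at 1.55 and 0.87 and A_52_P208763 at -0.25 and -0.63. Fitted alone, the first of them rose (1.21, adjusted p = 0.00335 from limma).

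**Figure D2:**
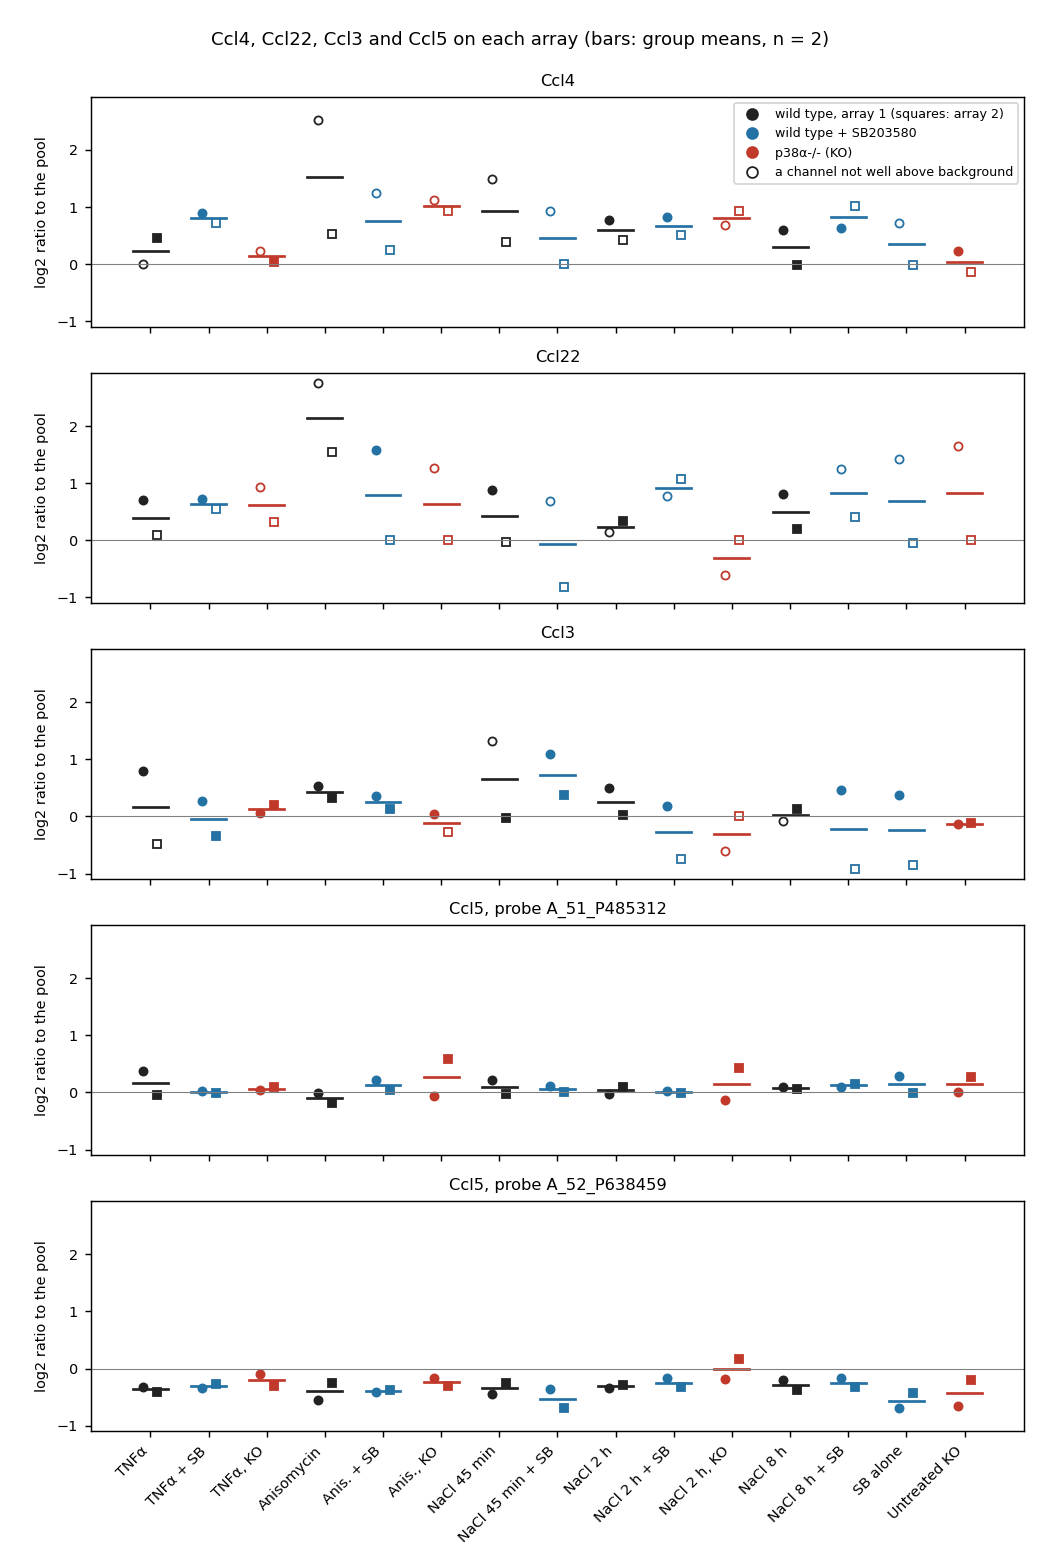
Log2 ratio to the pool of Ccl4, Ccl22, Ccl3 and the 2 Ccl5 probes on each of 30 arrays, on 1 shared scale (circles, array 1, squares, array 2, bars, group means, n = 2, black, wild type, blue, with SB203580, red, p38α-/-). Open symbols have a channel not well above background. Anisomycin array 1 holds the highest value of Ccl4 (2.53) and of Ccl22 (2.75), and Ccl5 stays between -0.70 and 0.59.

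In NaCl the induction was late, and its members were those of TNFα. At 8 h Ccl20 read 2.41 and 2.87 (mean 2.64 ± 0.33 (SD, n = 2), 6.24-fold, adjusted p = 8.07e-05 from limma). Ccl2 read 1.18 and 1.04 (mean 1.11, adjusted p = 3.07e-04 from limma). Ccl7 read 2.06 and 1.73 as the mean of its probes (1.89 with marked spots kept, adjusted p = 1.27e-06; 2.51 without, adjusted p = 2.70e-05, both from limma). Arrays of the 8 h group lay above those at 45 min and 2 h for all 3 genes. The Ccl7 probes again differed, at 3.66 and 2.95 for A_51_P436652 and 0.47 and 0.50 for A_52_P208763.

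At 2 h, Ccl20 read 1.60 and 0.88, a mean of 1.24 (adjusted p = 0.0483 from limma). That call ended without either array, at 0.88 (adjusted p = 0.623) and 1.60 (adjusted p = 0.0914), and with the normexp correction (0.72, adjusted p = 0.0665). At 45 min Ccl20 read 1.13 and 0.79 and was not called (0.96, adjusted p = 0.12 from limma). With the replicate number as a block it was (adjusted p = 0.0103), as was Ccl4 at a mean of 0.94 (adjusted p = 0.027). The block leaves variation shared by arrays of 1 number out of the error of this test against the pool. Ccl2 lay between -0.13 and 0.13 on the 4 arrays at 45 min and 2 h. Over the 3 times, 4 of 19 tests of members were called higher. Of all genes, 4.69% were higher at 45 min (11.1% with the block), 5.24% at 2 h and 11.0% at 8 h.

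The rise between 45 min and 8 h was tested directly. For Ccl7 it was 2.30 (adjusted p = 0.00392 from limma), the single call among 6 members tested, and 1.86 (adjusted p = 0.0591) without the second 8 h array. With marked spots kept it was 1.88 for Ccl7 (adjusted p = 2.26e-04 from limma) and 1.19 for Ccl2 (adjusted p = 9.04e-04), 2 of 7 members. For Ccl20 the difference was 1.68, not called in limma (adjusted p = 0.0712), but called with the block (adjusted p = 0.00323) and with the normexp background correction (adjusted p = 0.0198). The shares of all genes called higher were 3.54%, 4.45% with marked spots kept and 5.42% with the block.

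**Figure D3:**
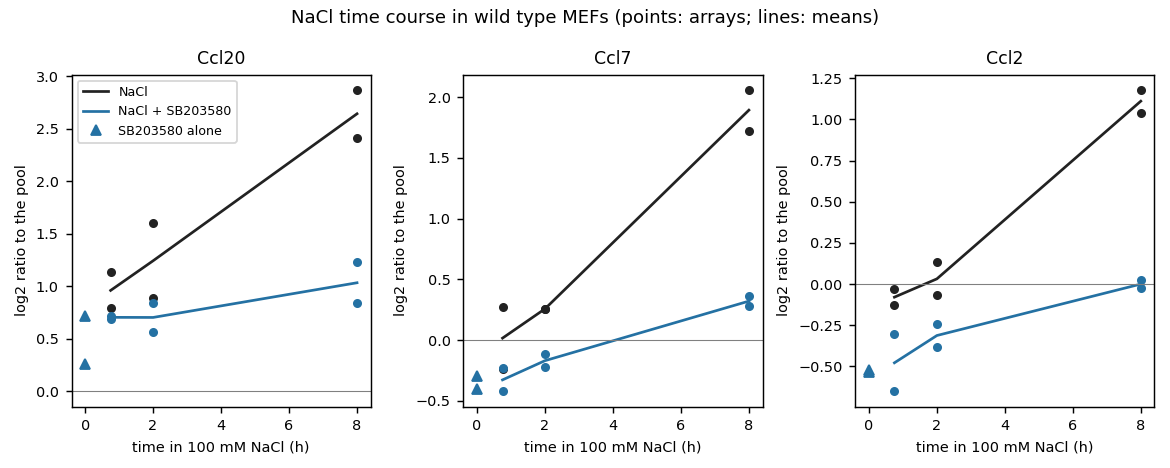
Log2 ratio to the pool against hours in 100 mM NaCl for Ccl20, Ccl7 (mean of 2 probes) and Ccl2 in wild type MEFs, without (black) and with SB203580 (blue), marked spots kept. Points are arrays, lines join means, and triangles at 0 h are SB203580 without stress. The curves are farthest apart at 8 h, where Ccl20 averages 2.64 without and 1.03 with the inhibitor.

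With SB203580, TNFα still raised the same genes. Ccl20 read 6.21 and 5.10 (mean 5.66 ± 0.78 (SD, n = 2), adjusted p = 7.02e-08 from limma), and Ccl7 read 4.66 and 3.88 on A_51_P436652, the probe without marked spots (4.27, adjusted p = 4.70e-07). Ccl2 read 3.36 and 3.17 (3.26 with the marked second spot, adjusted p = 1.95e-10 from limma). These were 2 of 6 members (5.61% of all genes), or 3 of 7 with marked spots kept (6.69%). No member passed in the other 5 SB203580 groups, where 14.7% (SB203580 alone), 5.33% (anisomycin) and 8.79%, 9.39% and 10.5% (NaCl at 45 min, 2 h and 8 h) of all genes were higher. With the block Ccl20 passed in the NaCl groups, at 0.71 (adjusted p = 0.0386), 0.70 (adjusted p = 0.0393) and 1.03 (adjusted p = 0.00385). Ccl3 passed at 45 min (0.73, adjusted p = 0.0278) and Ccl4 at 8 h (0.83, adjusted p = 0.0354) in the same limma fit. The blocked shares of all genes were 13.8%, 13.9% and 14.8%.

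With SB203580 alone 1 of 7 members was lower, less than the share of all genes, 27.7%, in the fit that kept marked spots. This was Ccl2 at -0.52 and -0.53, the second a marked spot, a mean of -0.53 (adjusted p = 0.00696 from limma). Before NaCl for 45 min Ccl2 read -0.30 and -0.65 (mean -0.48, adjusted p = 0.0162, 21.6% of all genes lower). Leaving out 1 array ended both calls, at an adjusted p of 0.0539 or 0.103 for the first and, without the second array, 0.373 for the other. Ccl20 lay at 0.72 and 0.26 with SB203580 alone.

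The effect of the inhibitor on a stress was taken as the difference between both groups. Without marked spots and without the block 0 of 29 tests were called lower in limma, while 4 had an unadjusted p under 0.05. With the block 1 of 29 was called. At 8 h of NaCl, Ccl7 differed by -1.78 and -1.36 in the arrays of the same number and Ccl2 by -1.21 and -1.02, with marked spots kept. Their mean differences were -1.57 (95% interval -2.14 to -1.0, adjusted p = 0.0194 from limma) and -1.11 (95% interval -1.53 to -0.69, adjusted p = 0.026). For Ccl7 without marked spots the difference was -1.76 (adjusted p = 0.225). Leaving out any 1 of the 4 arrays ended both calls, with an adjusted p between 0.0786 and 0.254. Ccl20 differed by -1.57 and -1.64 (mean -1.61, 95% interval -2.76 to -0.46), with an adjusted p of 0.537 in limma, or 0.0374 with the block. Of all genes, 0.113% were lower at 8 h, 0.129% with marked spots kept and 0.312% with the block.

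With TNFα the differences were nearer to 0 than at 8 h of NaCl and were not called, and the gap between both stresses was not tested. Ccl20 differed by -0.97 and -1.86 (mean -1.41), Ccl2 by -0.93 and -0.34 (mean -0.64) and Ccl7 by -0.91 and -0.50 (mean -0.71), each with an adjusted p of 1 in limma. With anisomycin Ccl20 differed by -1.20 and -1.23 (mean -1.21, adjusted p = 1). For NaCl at 45 min and 2 h the Ccl20 differences were -0.26 and -0.54. All of these arrays moved down with the inhibitor. The test itself rarely passed: 0.0204% of all genes were lower with the inhibitor for anisomycin and 0.0% for TNFα and for NaCl at 45 min and 2 h.

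A second test subtracted SB203580 alone from the groups with the inhibitor before the comparison. It called 0 of 29 tests, with 5 at an unadjusted p under 0.05. With the block the induction of Ccl20 was smaller, by a difference of -1.70 for anisomycin (adjusted p = 0.0345), -1.90 for TNFα (adjusted p = 0.0229) and -2.10 for NaCl at 8 h (adjusted p = 0.0181), against 0.206, 0.172 and 0.143 in limma without it. Both arrays went down each time, at -1.92 and -1.49, -1.69 and -2.12, and -2.29 and -1.90. That of Ccl7 differed by -1.22 at 8 h with marked spots kept (adjusted p = 0.048 from limma), a call that ended without any 1 of 5 of the 6 arrays (adjusted p between 0.115 and 0.235) and held without the second array of SB203580 alone (0.0463). Of all genes 0.347%, 0.277%, 0.0681%, 1.03% and 0.199% passed for anisomycin, TNFα and the 3 NaCl times, 1.04% for the last with marked spots kept, and 2.2%, 1.67% and 1.93% for anisomycin, TNFα and NaCl at 8 h with the block. In this second test the stress alone stands against the pool, so a shift shared by arrays of 1 replicate number does not cancel. The block takes that shift out of the error, so adjusted p values with the block can be too small.

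**Figure D4:**
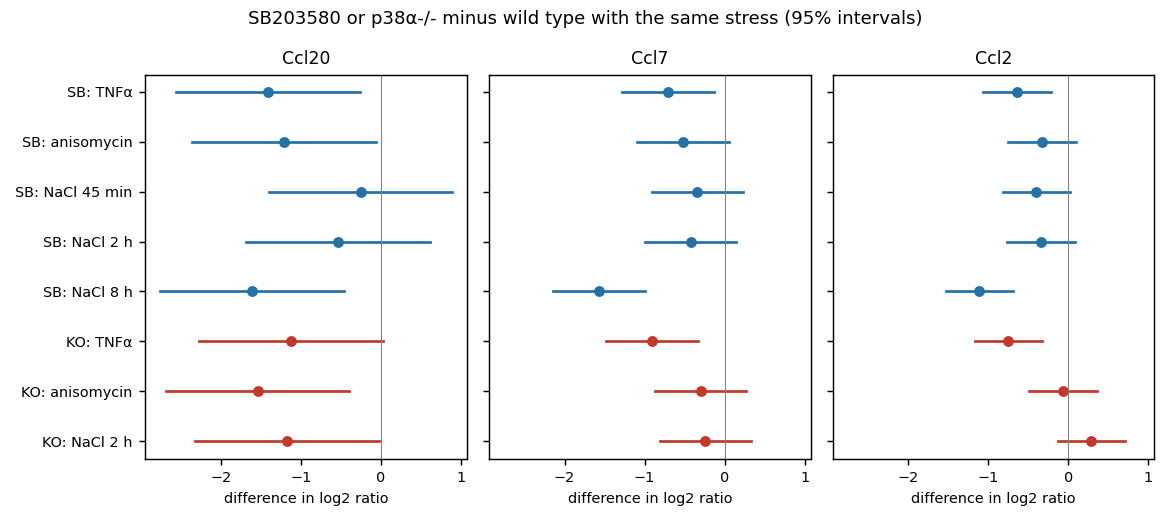
Difference in log2 ratio for Ccl20, Ccl7 and Ccl2 between SB203580 with a stress and the stress alone (blue) and between p38α-/- and wild type MEFs with the same stress (red). Points are means with marked spots kept and lines are 95% intervals from limma without the block. The intervals of all 3 genes lie below 0 for SB203580 with TNFα and with NaCl at 8 h, before adjustment over all genes.

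The knockout was checked on Mapk14, which read -0.94 and -1.98 in untreated p38α-/- MEFs, -1.26 and -2.24 with anisomycin, -1.14 and -1.13 with TNFα and -1.09 and -1.93 with NaCl. All 8 arrays were below the pool, though not at the bottom of the scale. Whether the probes lie in the deleted part was not tested.

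In p38α-/- MEFs TNFα raised the same 3 genes. Ccl20 read 6.18 and 5.72 (mean 5.95 ± 0.33 (SD, n = 2), adjusted p = 2.43e-08 from limma) and Ccl7 read 2.53 and 2.95 over its probes (2.74 with marked spots kept, adjusted p = 4.47e-08). Without marked spots Ccl7 was 3.46 (adjusted p = 3.91e-06), or 4.39 without the first array and 2.53 without the second, because different probes then remained. Ccl2 read 3.45 and 2.86 from marked spots (3.15, adjusted p = 8.91e-11). No other member passed without marked spots, 2 of 25 tests in all, and the shares of all genes higher were 8.02% (untreated), 6.40% (anisomycin), 3.44% (TNFα) and 9.06% (NaCl). With marked spots kept it was 4 of 28, with 4.07% of all genes for TNFα and 8.12% for anisomycin, where Ccl4 passed at 1.13 and 0.93 (mean 1.03, adjusted p = 0.0466). Neither channel of that spot was above background. With the block Ccl4 passed with anisomycin (adjusted p = 0.0182, 9.68% of all genes) and with NaCl (0.81, adjusted p = 0.045, 12.5%). Leaving out either array ended the Ccl4 call with marked spots kept (adjusted p = 0.249 and 0.225).

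Ccl20 in the other knockout groups split by array. It read 0.75 and -1.37 untreated, 0.45 and -0.48 with anisomycin and 0.78 and -0.64 with NaCl, so that the first array was above the pool and the second below it each time. The first p38α-/- arrays were scanned in 1 batch with the second wild type arrays, and the second p38α-/- arrays in later ones. Within the shared batch Ccl20 differed between knockout and wild type by -0.84 with anisomycin, -0.78 with TNFα and -0.11 with NaCl, 1 array against 1.

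No member was called lower in p38α-/- than in wild type MEFs with the same stress, 0 of 16 tests, with 3 at an unadjusted p under 0.05 and with 0.756% (anisomycin), 0.358% (TNFα) and 0.436% (NaCl) of all genes lower. For Ccl20 with anisomycin the difference was -1.54 (95% interval -2.69 to -0.40, adjusted p = 0.22 from limma). It passed with the block (adjusted p = 0.0143, 2.18% of all genes) and was -0.65 (adjusted p = 0.476) with the scan batch as a term. For TNFα it was -1.12 (adjusted p = 0.659) and for NaCl -1.18 (adjusted p = 0.419). With marked spots kept, TNFα gave -0.75 for Ccl2 (95% interval -1.17 to -0.33, adjusted p = 0.143) and -0.91 for Ccl7 (95% interval -1.48 to -0.34, adjusted p = 0.221). With the block as well these were at an adjusted p of 0.051 and 0.0348 (1.04% of all genes), and the series matrix gave -0.83 for Ccl2 (adjusted p = 0.0333). Within the shared batch the values were -0.06 and -0.67.

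After subtraction of the untreated knockout 0 of 16 tests were called, with 1 at an unadjusted p under 0.05, against 0.122%, 0.145% and 0.0% of all genes for anisomycin, TNFα and NaCl. Ccl22 with anisomycin differed in induction by -2.34 (adjusted p = 0.18 from limma, 0.0382 with the block) and Ccl20 by -1.23 (adjusted p = 0.388). With the scan batch as a term the values were -2.72 (adjusted p = 0.0213) and -1.38 (adjusted p = 0.0471). The wild type level stands against the pool there, so a batch effect does not cancel and both values depend on the reference batch. The shares of all genes were 1.3% with the block and 2.68% with the batch term. Among the 6 arrays behind the Ccl22 value, 1 had a channel above background.

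The 13 other CC chemokine genes on the array did not rise with TNFα: 0 of 10 tested passed upwards and 3 downwards, with a median of -0.16 against 0.00375 for all genes in the same fit, of which 5.72% were lower. The 3 were Ccl17, a ligand of Ccr4 like Ccl22, at -0.87 and -0.83 (mean -0.85), Ccl21c (-0.58) and Ccl28 (-0.59). With marked spots kept 4 of 13 were lower with TNFα, against 16.3% of all genes. Levels below the pool were not particular to TNFα, as the summed log2 ratio of these genes was below 0 in every group. It was -0.41 and -0.16 on the TNFα arrays and -0.51 and -0.49 with SB203580 alone. At 8 h of NaCl 2 of 8 passed upwards, Ccl11, which attracts eosinophils, at 0.66 and 0.34 (adjusted p = 0.00179 from limma) and Ccl8 at 0.45 and 0.56 (adjusted p = 0.00245). Of all genes 11.0% were higher there. With marked spots kept 2 of 13 were higher and 2 lower, against 10.4% and 15.6% of all genes. Of 13 genes for CC chemokine receptors, 10 were tested with TNFα and 1 passed, Ccrl2, which binds chemokines without signalling, at 0.69 and 0.57 (adjusted p = 0.0288). The share of all genes higher was 5.25%. None of the 10 receptors was lower. With marked spots kept 2 of 13 receptors were lower, against 16.3% of all genes, and Ccr6, the receptor of Ccl20, was 1 of them at -0.39 and -0.56 (adjusted p = 0.023).

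Among 18 genes of the route from TNFα to NF-κB, 2 of 8 tested rose with TNFα without marked spots, against 5.25% of all genes. Tnfaip3, which encodes the inhibitor A20, read 5.69 and 4.98 (mean 5.34, adjusted p = 7.56e-10 from limma), and Nfkb1, a subunit of NF-κB, read 1.42 and 0.82 (mean 1.12, adjusted p = 4.72e-04). With marked spots kept 4 of 18 rose and 3 fell, where 6.1% of all genes were higher and 16.3% lower, and Nfkbia was at 0.65 and 0.67. Tnfaip3 was high in groups where the 3 inducible chemokines were, at 4.73 with TNFα after SB203580, 4.43 with TNFα in p38α-/- MEFs and 1.69 with NaCl for 8 h. Its means did not follow those of Ccl20 in every group. With anisomycin and with NaCl for 2 h, Tnfaip3 differed between p38α-/- and wild type MEFs by -0.15 and -0.003. Ccl20 stood at -0.02 and 0.07 in p38α-/- MEFs there, and at 1.53 and 1.24 in wild type. Its 2 knockout arrays disagreed in sign in both groups, and neither difference was called without the block. Within the shared scan batch Ccl20 differed by -0.84 and -0.11. Whether Ccl20 and Tnfaip3 differ in this was not tested.

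Of 11 genes for p38 and messenger RNA stability, 2 of 6 tested rose with TNFα, Zfp36 (3.09, adjusted p = 1.39e-08 from limma) and its relative Zfp36l1 (1.73). The share of all genes was 5.25%. Unlike Ccl2, Ccl7 and Ccl20, Zfp36 had its highest values with anisomycin, 4.08 and 3.72 with marked spots kept. There it was lower with SB203580 (difference -2.54, adjusted p = 5.80e-05) and in p38α-/- MEFs (difference -2.45, adjusted p = 2.31e-05). Zfp36 stood at -0.34 with NaCl for 8 h, where those 3 chemokine genes were above the pool.

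Markers were read beside these results. All 10 fibroblast genes were above background on 30 arrays. Of 12 macrophage or leukocyte genes 10 were on the array, and these were above background on all arrays too. Most spots of any kind were, at a median of 92.4% per array in Cy5 and 97.2% in Cy3. With TNFα and with anisomycin 0 of 6 leukocyte genes tested passed, and their summed log2 ratio lay between -0.28 and 0.14 over all 30 arrays. In NaCl 2 of 5 were higher at 45 min, Lyzs (0.47) and Aif1 (0.59), and 1 of 6 at 8 h, Itgam (0.41, adjusted p = 4.33e-04 from limma). Of all genes 4.69% and 11.0% were higher there. With marked spots kept Aif1 was at 0.23 (adjusted p = 0.0672 from limma). After SB203580, 1 of 9, 2 of 8 and 1 of 8 were higher at the 3 NaCl times, against 8.79%, 9.39% and 10.5% of all genes. Cd14 was lower with NaCl for 2 h (-0.28), 1 of 10 tested, against 4.69% of all genes. In each of the 3 stressed p38α-/- groups 1 leukocyte gene was higher, Itgam with anisomycin and TNFα and Cd68 with NaCl. With anisomycin, TNFα and NaCl 9, 8 and 9 were tested, and 6.4%, 3.44% and 9.06% of all genes were higher. Among fibroblast genes 2 of 8 were lower with anisomycin in wild type MEFs, Col1a1 (-0.40) and Col3a1 (-0.64), and 1 each in NaCl at 45 min, Col5a1 (-0.81), and 8 h, Fn1 (-0.38). In these groups 6.28%, 5.19% and 11.2% of all genes were lower. None of these calls held with marked spots kept, at 0.06, -0.30, -0.17 and -0.31 in the same order, while Col5a1 passed with anisomycin (-0.33). Each of these genes has 2 or 3 probes, so that its mean depends on which spots were kept. In p38α-/- MEFs 2 of 8 were higher with anisomycin, Pdgfrb (0.92) and Thy1 (0.62), and 2 of 7 with NaCl, Col1a1 (0.89) and Thy1 (0.75). The shares of all genes were 6.4% and 9.06%. Col1a2 could be tested only with marked spots kept, and was lower in every p38α-/- group, between -0.61 and -0.41. Col1a1 went the other way in that fit and was higher in every p38α-/- group, between 0.72 and 1.02. In that fit Fn1 was lower untreated (-0.51) and with anisomycin (-0.45). There 3 of 10 fibroblast genes were higher and 2 lower with anisomycin, and 4 higher and 1 lower with NaCl. These genes were named after their values were seen. The part of such cells in the chemokine values was not tested.

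Across the 15 group means, the genes most like Ccl20 among 17149 were Olfr1015, named as an olfactory receptor (Pearson r = 0.981), Tnfaip3 (r = 0.976) and Ccl7 (r = 0.965), and those most like Ccl7 were the same genes with Ccl20 in place of Ccl7 (r between 0.956 and 0.965). Ccl2 had all group means only with marked spots kept, and over 21689 genes was most like Tnfaip3 (r = 0.992), Chrm3 (r = 0.983) and Ccl7 (r = 0.982). All groups share 1 pool, and the 3 groups with TNFα carry much of these values: over the other 12 groups r was 0.827, 0.715 and 0.85 for the 3 genes most like Ccl20. The other members had lower values, up to 0.919 for Ccl5 with Olfr129, 0.883 for Ccl3 with E130009M08Rik, 0.82 for Ccl4 with Id4 and 0.814 for Ccl22 with H1f0. Among the members themselves, with marked spots kept, r was 0.982 for Ccl2 with Ccl7, 0.973 for Ccl2 with Ccl20 and 0.974 for Ccl7 with Ccl20, and between -0.522 and 0.455 for every other pair.

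**Figure D5:**
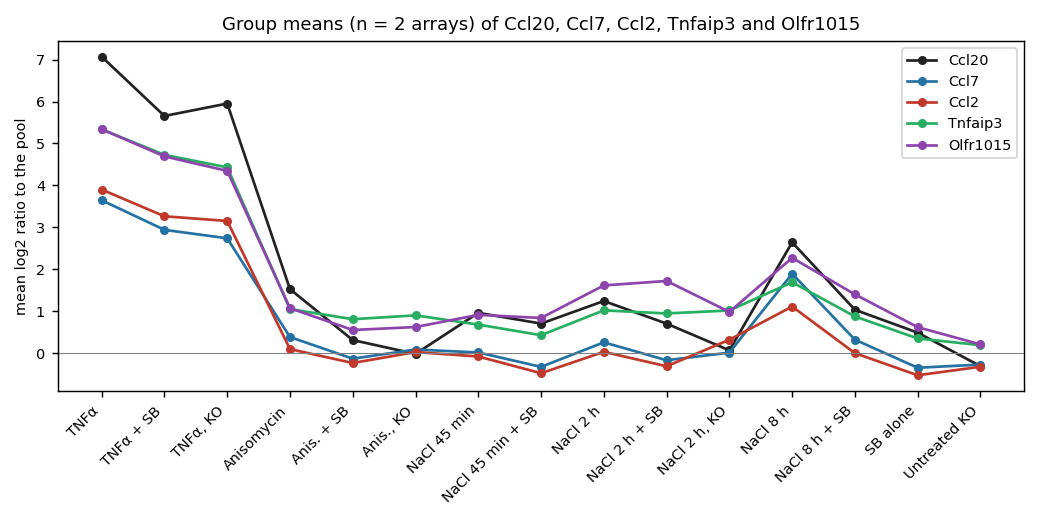
Mean log2 ratio to the pool over 2 arrays in each of the 15 groups, marked spots kept, for Ccl20, Ccl7, Ccl2 and 2 genes of similar pattern, Tnfaip3 and Olfr1015. All 5 lines are highest in the 3 groups with TNFα and rise again at 8 h of NaCl without SB203580.

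Ordered by group mean, Ccl20 was highest in TNFα, then TNFα in p38α-/- MEFs, then TNFα with SB203580, then NaCl at 8 h, and the values of the 2 arrays overlapped between neighbours in 10 of 14 steps. The steps without overlap for Ccl2 and Ccl7 were 6 and 4 of 14. For Ccl3 and Ccl4 every pair of neighbours overlapped, and for Ccl5 and Ccl22 13 of 14 did.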

How the data were processed

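RNA of each sample (Cy5) and the pool of untreated wild type cultures (Cy3) shared 2-colour Agilent arrays. The deposited text of each array, made by the authors with Agilent Feature Extraction (9.1 in the submitters' notes, 8.1.1.1 in the file headers), holds a background-subtracted and dye-normalised log10 ratio and spot intensity values in both channels. The deposited series matrix holds log2 ratios of the same arrays. Its columns correlated with the log10 ratios at r of 0.779 to 0.956, with slopes of 0.886 to 0.98 and medians of -0.06 to 0.03, and its exact normalisation is not given in the sources used here.

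Log10 ratios of the 41174 probes that are no controls were turned to log2, outlier-marked spots were left out, and spots, then probes, were averaged per gene name. Limma (3.58.1, R 4.3.3) was fitted to 15 group means, with Benjamini-Hochberg adjustment over all genes measured on every array compared and calls at an adjusted p of 0.05. Each group was set against 0, and groups with the same stress against each other. Intervals are at the 95% level. The precision is limited by 2 arrays per group. The fold for a spot below background in the pool set the mean treated signal of both arrays against the lowest signal above background. Other code used Python 3.11.15. The fit was tested on simulated data.

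Replicate numbers come from the sample titles. Deviations from the group means correlated above 0.1 between wild type groups in 55 of 55 pairs (median 0.458), between p38α-/- groups in 6 of 6 (median 0.246) and across genotypes in 6 of 44 (median -0.0051). The numbers were therefore taken as a block within each genotype in a further fit. The main fit had no block, so that this shared variation stayed in its spread. It does not cancel in tests against the pool, of induction or between genotypes, and the block takes it out of their error. Adjusted p values of those tests with the block can therefore be too small. The arrays fell into 4 scan batches: all first wild type arrays, all second wild type with all first p38α-/- arrays, and 2 for the second p38α-/- arrays.

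The 7 genes and the other gene lists were chosen with earlier results of these data known. Named genes are the members, Mapk14, list genes called at 2.5-fold or more in a wild type stress group (the 12 with the largest mean) and, per member, the 3 genes with the highest Pearson r over group means. Other list genes were named after their values were seen. Alternatives were normexp background correction (offset 50), the series matrix, outlier-marked spots kept, spots dim in both channels left out, the brightest probe, the block, 1 genotype at a time and leaving out each array. Outlier-marked spots kept with the block, single probes and the scan batch as a term were added after seeing the data. Promoter windows and chromosomes are those of RefSeq for GRCm38.p6.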

Additional observations from a re-analysis of the deposited data

Results flagged for a closer look

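A smaller induction after SB203580 passed a test of the difference itself in the fit with the replicate block and outlier-marked spots kept. The block leaves variation shared by arrays of 1 replicate number out of the error of this test, which can then pass too easily. For Ccl20 the differences were -1.70 with anisomycin, -1.90 with TNFα and -2.10 with NaCl for 8 h. Ccl7 with NaCl for 8 h was at -1.22. Ccl22 with anisomycin was at -2.05, but its pool signal was not above background on either wild type anisomycin array and its treated signal on neither array of SB203580 alone, so that no induction was measured there.

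Between p38α-/- and wild type MEFs, Ccl20 with anisomycin differed in induction by -1.38 in the fit with the scan batch as a term. That value depends on the reference batch, because the wild type level stands against the pool. Without the batch term it was not called. The fitted value for Ccl22 with anisomycin was -2.34 with the block, from spots of which 1 channel on 1 of 6 arrays was above background, and it is no measured difference in induction.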

How the results depend on the processing

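Counts of members called changed with the processing, and no value of a member changed sign past a threshold. The fibroblast gene Col1a1 did change sign with anisomycin in wild type MEFs, from -0.40 to 0.06 with outlier-marked spots kept. Keeping outlier-marked spots gave 3 members higher with TNFα, 4 in p38α-/- groups, 2 lower with SB203580, 1 smaller induction with SB203580, 6 higher with TNFα than with another stress and 2 higher at 8 h than at 45 min of NaCl. The series matrix gave 3, 4 in SB203580 groups, 2 lower with SB203580, 1 lower in p38α-/- MEFs, 2 smaller inductions with SB203580, 6 higher with TNFα than another stress and 3 at 8 h. The replicate block gave 7 calls in SB203580 groups, 4 in p38α-/- groups, 1 lower with SB203580, 1 lower in p38α-/- MEFs, 3 smaller inductions with SB203580, 1 in p38α-/- MEFs and 2 at 8 h, and changed no call not given here or in the report. Block and kept spots together gave 3 with TNFα, 7 in NaCl, 10 with SB203580, 5 in p38α-/- groups, 3 and 2 lower with SB203580 and in p38α-/- MEFs, 5 and 1 smaller inductions, 6 against other stresses and 3 at 8 h. Fitting 1 genotype gave 4 in SB203580 groups, 4 in p38α-/- groups, 1 smaller induction and 2 at 8 h. The brightest probe gave 1, 1 and, at 8 h, 0, normexp gave 2 at 8 h, and the scan batch term gave 2 smaller inductions in p38α-/- MEFs with and without outlier-marked spots. Leaving out 1 array gave 1 to 3 calls with TNFα, 0 to 2 with anisomycin, 3 to 3 in NaCl, 2 to 3 with SB203580, 2 to 2 in p38α-/- groups, 0 to 0 for each of the 4 counts of lower values or smaller inductions, 2 to 4 against other stresses and 0 to 1 at 8 h. The cause of these changes was not tested. With outlier-marked spots kept, 7 members in place of 5 could be tested with TNFα. Signal over background limits Ccl3, Ccl4 and Ccl22.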
